A study of Mus musculus with 12 samples.

Results

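Transcripts of 9 genes of the NF-κB system were followed in hippocampal RNA of naturally aged mice given PQQ (pyrroloquinoline quinone, a redox-active compound) or saline. The 9 genes were chosen by name: the NF-κB subunits Nfkb1, Nfkb2, Rela and Relb, the inhibitors Nfkbia, Nfkbie and Tnfaip3, and the adhesion molecules Icam1 and Vcam1. They are 9 of the 27833 genes listed, and all 9 passed the filter on low values (a mean FPKM of 0.5 or more, fragments scaled to gene length and library total) that left 13796 genes for testing. The mice were male, wild-type C57BL/6J and 20 months old, and were gavaged for 14 days. CON received 0.2 mL of normal saline, PQQ-L 5 mg/kg/day of PQQ in saline and PQQ-H 10 mg/kg/day. The study assigned 6 mice to each group, and 3 CON, 5 PQQ-L and 4 PQQ-H libraries were analyzed. The labels do not tie a library to a mouse, so the p-values measure the spread between libraries. The comparisons with CON address whether PQQ alters the hippocampal transcripts of aged mice, and the comparison of the doses whether the amount matters.

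NF-κB is a family of dimeric transcription factors that are held in the cytoplasm by inhibitor proteins of the IκB family. In the canonical arm, signals such as TNF, interleukin 1 and bacterial products activate the IKK kinases, IκBα is degraded, and dimers of p50 (from Nfkb1) and RelA (from Rela) enter the nucleus. In the non-canonical arm, the kinase NIK stabilizes and p100 (from Nfkb2) is cut to p52, which pairs with RelB. The activity of the factors is set mostly at the protein level, and the mRNA of the factors is only one layer of it. Nfkbia, Nfkbie, Tnfaip3, Nfkb2, Relb, Icam1 and Vcam1 are textbook targets of NF-κB, so their transcripts are often used as readouts. In the brain, ICAM-1 and VCAM-1 are known from vascular endothelium, where they bind integrins of passing leukocytes, and are also made by glia and by the choroid plexus.

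The NF-κB site itself is seen in the promoters of several of these genes, and the sequences are shown because such sites are the textbook link between the factors and their inhibitors and targets. RefSeq windows on GRCm38.p6 (250 bases before to 50 after a start site) were found for 6 of the 9 genes, with 9 windows in all. Nfkb1, Relb and Vcam1 had none in the table. The κB consensus, a run of 10 letters, was searched on both strands and was in at least 1 window of Nfkb2, Nfkbia, Nfkbie and Tnfaip3 and in 8.46% of all 32851 windows. The Rela window and the second Tnfaip3 window had no match. The Icam1 window had no match either, but held the 9-letter run GGAAATTCC, which is in 0.317% of all windows (both strands) and also lies in the Nfkbia match and, read on the other strand, in the Tnfaip3 window. The Nfkb2 match shown, from base -39, overlaps another from base -38. Each line below gives 20 bases on either side of 1 match, 5′ to 3′ on the strand of the gene, with the matching letters in capitals.
Nfkbia, chr12:55492647-55492696, minus strand, match from base -29: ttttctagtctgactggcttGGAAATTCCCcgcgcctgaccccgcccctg
Nfkbie, chr17:45555574-45555623, plus strand, match from base -106: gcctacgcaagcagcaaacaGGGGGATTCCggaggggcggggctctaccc
Tnfaip3, chr10:19015393-19015442, minus strand, match from base -12: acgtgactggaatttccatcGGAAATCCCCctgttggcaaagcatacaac
Nfkb2, chr19:46304678-46304727, plus strand, match from base -39: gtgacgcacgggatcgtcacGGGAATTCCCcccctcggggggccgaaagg
Icam1, chr9:21015767-21015815, plus strand, match from base -153: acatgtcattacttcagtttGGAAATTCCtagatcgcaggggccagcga
Positions are counted back from the start site, with -1 just before it. A match describes letters in a window and not binding, which was not measured here.

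The depth recovered from the FPKM was 29654553 to 38179496 reads on genes in a library. The 9 genes had from 38 reads (Nfkbie) to 1697 reads (Vcam1) in a library, which is a counting error of 16.2% and 2.43%. The label hippocampus was checked against markers. The summed FPKM of 8 hippocampal neuron markers (the highest were Neurod6 and Calb1) was 70.3 to 251 in CON, 192 to 313 in PQQ-L and 123 to 367 in PQQ-H. For 8 striatal neuron markers (the highest were Ppp1r1b and Penk) the sum was 1291 to 3222 in 4 libraries (CON 1 and 3, PQQ-H 1 and 2), and 34.8 to 172 in the other 8 libraries. These 4 libraries are called striatum-rich here, and they go against the label. They are 2 of 3 CON, 0 of 5 PQQ-L and 2 of 4 PQQ-H libraries. The sum of 12 choroid plexus markers (Kl and Clic6 were highest) was 60.8 to 174 in CON, 8.26 to 15.3 in PQQ-L and 4.56 to 18.3 in PQQ-H, so that every CON library was above every treated library. The log2FC of the 9 genes against CON are given below with and without the 4 striatum-rich libraries. Without them CON is CON 2 alone and PQQ-H is PQQ-H 3 and 4, and CON 2 is assumed to vary like the other groups.

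By length-scaled level over the 12 libraries, Nfkbia was highest with a mean of 14.9 ± 2.67 FPKM (SD over libraries), followed by Vcam1 with 8.57 ± 2.66, Rela with 6.37 ± 1.08 and Nfkb1 with 3.71 ± 0.366. Icam1 (1.41 ± 0.698 FPKM) and Tnfaip3 (1.26 ± 0.285) lay within each other's spread. So did Nfkbie (0.827 ± 0.212 FPKM), Nfkb2 (0.756 ± 0.254) and Relb (0.644 ± 0.115), which were the lowest. Among all tested genes, 71.4% had a lower mean than Nfkbia and 3.99% had a lower mean than Relb. The order depends on the gene length behind the FPKM. That length was 11300 bases for Nfkb2 and 8706 for Relb, against 4584 and 3885 bases of merged exons in GENCODE M21, while for Vcam1 it was 3398 against 8870. For Nfkb2 it is even above the 8066 bases that the whole gene spans there. With the GENCODE lengths the means would be 1.86 FPKM for Nfkb2, 1.44 for Relb and 3.28 for Vcam1, so that Nfkb2 and Relb would stand above Nfkb1 (1.31). The length is the same in every library, but it sets the FPKM to which the pseudocount of 0.1 is added and the filter applied, so it weighs on the fold changes of low genes. With pseudocounts of 0.01, 0.1 and 1 the log2FC of Nfkb2 in PQQ-L vs. CON was -0.45, -0.40 and -0.19. The relative spread over libraries was largest for Icam1 (49.6% of the mean) and smallest for Nfkb1 (9.84%).

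**Figure D1:**
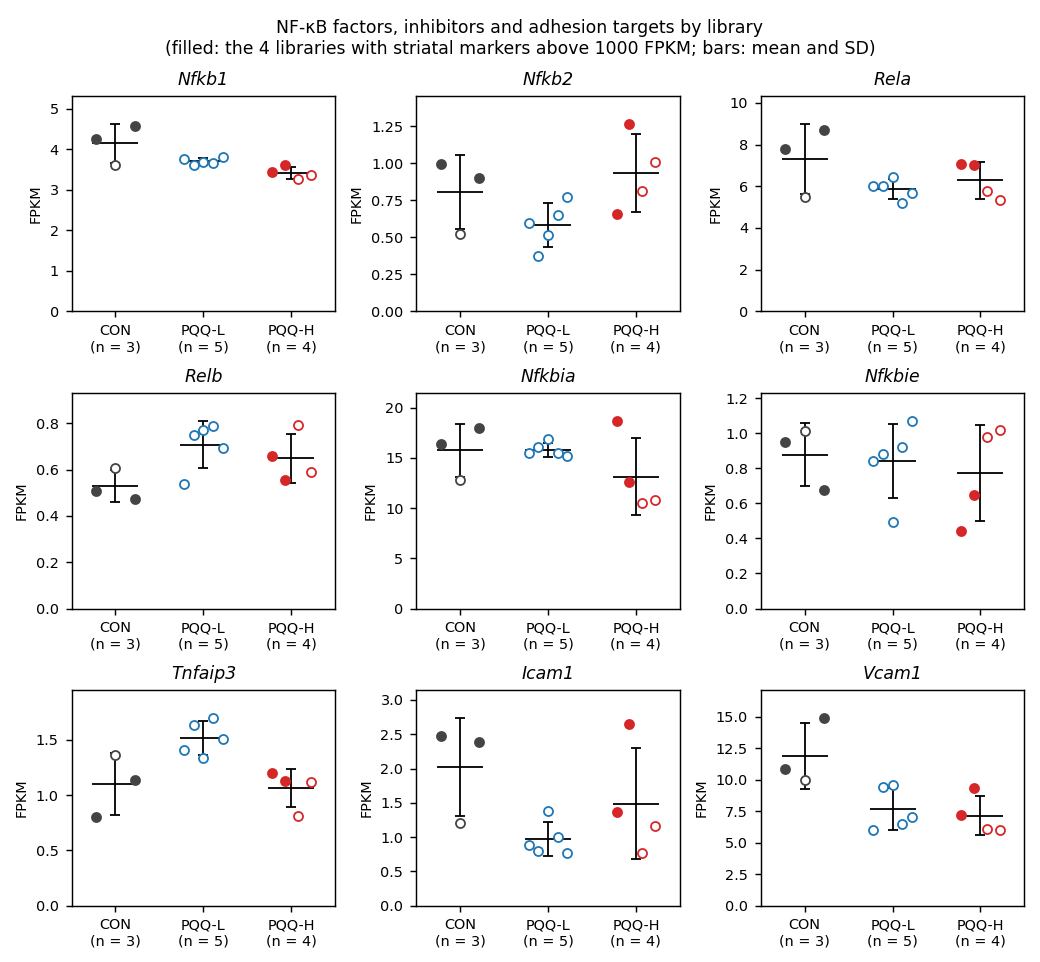
FPKM of the 9 genes (1 panel each, linear axes from 0) in every CON, PQQ-L and PQQ-H library, with the mean and SD of each group as bars. Filled points are the 4 striatum-rich libraries. Vcam1 is the gene whose CON libraries (9.95 to 14.9 FPKM) lie above all PQQ-L and PQQ-H libraries (5.99 to 9.58 FPKM).

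With limma on log2(FPKM + 0.1), 0 of the 9 genes passed |log2FC| > 1 and a Benjamini-Hochberg adjusted p < 0.05, neither in PQQ-L vs. CON or PQQ-H vs. CON nor between the doses. The count was also 0 with voom on the recovered reads. Over all genes tested, 0.471%, 0.819% and 0% passed these thresholds. At an unadjusted p < 0.05, Icam1 and Vcam1 were lower and Tnfaip3 was higher in PQQ-L vs. CON, which are 2 and 1 of 9 genes against 11.6% and 8.92% of all genes. In PQQ-H vs. CON, Nfkb1 and Vcam1 were lower and 0 genes were higher, against 7.88% and 1.85% of all genes. The 9 genes had a median log2FC of -0.15 at the low dose and -0.21 at the high dose, beside -0.03 for all genes in both. Of the 9, 6 had a log2FC below 0 at the low dose and 7 at the high dose, while the share below 0 over all genes was 53.9% and 55.6%. Both comparisons use the same 3 CON libraries.

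**Figure D2:**
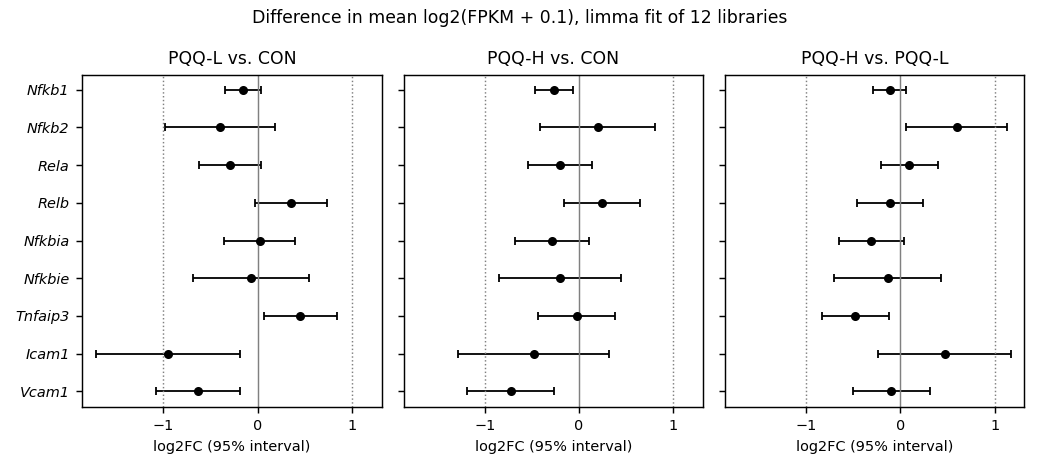
log2FC of the 9 genes with 95% intervals for each dose against CON and for the high against the low dose, from the limma fit of 12 libraries. The dotted lines mark a log2FC of -1 and 1. No gene passed the thresholds, and the interval of Vcam1 lies below 0 in both comparisons with CON.

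The canonical subunits were lower on average in both PQQ groups, without passing the test. Nfkb1 (chr3:135584655-135691547 on GRCm38, minus strand) encodes p105, the precursor of p50. It was at 4.24, 3.62 and 4.57 FPKM in CON 1 to 3, at 3.76, 3.61, 3.67, 3.65 and 3.79 in PQQ-L 1 to 5 and at 3.44, 3.61, 3.25 and 3.35 in PQQ-H 1 to 4. The 4 PQQ-H libraries were all below the CON libraries, though PQQ-H 2 (3.610 FPKM) was close to CON 2 (3.619 FPKM), while PQQ-L and CON overlapped. Genes that were lower with no overlap made up 5.72% of all genes in PQQ-H vs. CON. The log2FC of Nfkb1 was -0.27 ± 0.09 (SE) in PQQ-H (adjusted p = 0.315) and -0.15 ± 0.09 in PQQ-L (adjusted p = 0.277). Without the 4 striatum-rich libraries it was -0.13 ± 0.12 in PQQ-H and 0.03 ± 0.10 in PQQ-L.

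Rela (chr19:5637483-5648130, plus strand) encodes RelA (p65), the subunit with the strongest transactivating domain of the canonical dimer. Its FPKM was 7.79, 5.46 and 8.71 in CON 1 to 3, 5.99, 6.01, 6.45, 5.18 and 5.69 in PQQ-L, and 7.06, 7.01, 5.75 and 5.32 in PQQ-H. The 4 highest values were those of the 4 striatum-rich libraries (7.01 to 8.71 FPKM), and the other 8 libraries were at 5.18 to 6.45. The log2FC was -0.29 ± 0.15 in PQQ-L (adjusted p = 0.259) and -0.20 ± 0.16 in PQQ-H (adjusted p = 0.746). Without the 4 libraries it was 0.10 ± 0.13 and 0.02 ± 0.14, so the sign turned in both. In bulk RNA such a difference can come from fewer cells of a type or from less RNA per cell, and these cannot be told apart.

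Over all libraries, the non-canonical subunits differed in sign at the low dose alone, where Relb was above 0 and Nfkb2 below, and both were above 0 at the high dose. Relb (chr7:19606217-19629438, minus strand), the partner of p52, was at 0.508, 0.608 and 0.473 FPKM in CON, at 0.536, 0.749, 0.770, 0.790 and 0.693 in PQQ-L and at 0.660, 0.553, 0.792 and 0.591 in PQQ-H. CON 2 was above PQQ-L 1, PQQ-H 2 and PQQ-H 4, so the groups overlapped. The log2FC was 0.35 ± 0.18 in PQQ-L (adjusted p = 0.253) and 0.25 ± 0.18 in PQQ-H (adjusted p = 0.737), and 0.18 ± 0.26 and 0.15 ± 0.29 without the striatum-rich libraries.

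Nfkb2 (chr19:46304320-46312385, plus strand), which encodes the p100 precursor of p52, was at 0.994, 0.525 and 0.898 FPKM in CON, at 0.595, 0.375, 0.517, 0.649 and 0.773 in PQQ-L and at 0.654, 1.27, 0.814 and 1.01 in PQQ-H. The groups overlapped. The log2FC was -0.40 ± 0.27 in PQQ-L (adjusted p = 0.338) and 0.20 ± 0.28 in PQQ-H (adjusted p = 0.857), and without the striatum-rich libraries 0.10 ± 0.33 and 0.69 ± 0.37. In PQQ-H vs. PQQ-L, Nfkb2 was higher by 0.60 ± 0.24 on the log2 scale (adjusted p = 0.580), where 3.55% of all genes were higher at an unadjusted p < 0.05. The exact permutation test of this difference gave a two-sided p = 0.0317, where 126 splits allow no less than 0.0159. Without the striatum-rich libraries, all of them CON or PQQ-H, the difference was 0.59 ± 0.25 (adjusted p = 0.392). In GENCODE M21, 830 exonic bases of Nfkb2 are shared with genes on the opposite strand, among them Psd, which was at 42.2 to 119 FPKM. Strand-specific counting is not stated, and without it the reads of such a pair cannot be told apart. The length behind the FPKM of Nfkb2 (11300 bases) is above the 8066 bases of the whole gene in GENCODE M21. Which bases were counted for Nfkb2 is therefore not known, and this limits all its values.

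The inhibitors gave values of either sign. Nfkbia (chr12:55489410-55492647, minus strand) encodes IκBα, the inhibitor that NF-κB itself restores after a signal. It was at 16.4, 12.8 and 18.0 FPKM in CON, at 15.4, 16.1, 16.9, 15.5 and 15.2 in PQQ-L and at 18.7, 12.6, 10.5 and 10.8 in PQQ-H. The PQQ-L libraries lay within the range of CON, and PQQ-H held both the highest and the 3 lowest of the 12 values. The log2FC was 0.02 ± 0.17 in PQQ-L (adjusted p = 0.943), with a 95% interval of -0.35 to 0.40. It was -0.29 ± 0.18 in PQQ-H (adjusted p = 0.681). Without the striatum-rich libraries the log2FC was 0.30 ± 0.09 at the low dose and -0.27 ± 0.10 at the high dose (adjusted p = 0.883 and 0.418), both against CON 2 alone, whose 12.8 FPKM is the lowest of the CON group. Between the doses the log2FC of Nfkbia was -0.31 over all libraries and -0.57 ± 0.07 (adjusted p = 0.176) without the striatum-rich libraries.

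Nfkbie (chr17:45555703-45563169, plus strand), which encodes IκBε, had the fewest reads, 38 to 89 in a library. Its FPKM was 0.947, 1.01 and 0.674 in CON, 0.844, 0.881, 0.493, 0.921 and 1.07 in PQQ-L and 0.443, 0.646, 0.978 and 1.02 in PQQ-H. The groups overlapped over most of their range. The log2FC was -0.07 ± 0.28 in PQQ-L (adjusted p = 0.878, 95% interval -0.69 to 0.55) and -0.21 ± 0.30 in PQQ-H (adjusted p = 0.861). These values were -0.27 ± 0.33 and -0.01 ± 0.37 without the striatum-rich libraries. With TPM or quantile scaling the log2FC in PQQ-L was 0.03 or 0.10.

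Tnfaip3 (chr10:19000910-19015657, minus strand) encodes A20, a ubiquitin-editing enzyme that ends signaling upstream of IKK. It was at 0.801, 1.36 and 1.14 FPKM in CON, at 1.41, 1.63, 1.33, 1.70 and 1.51 in PQQ-L and at 1.20, 1.13, 0.814 and 1.12 in PQQ-H. PQQ-L 3 (1.33 FPKM) was just below CON 2 (1.36 FPKM), and the other 4 PQQ-L libraries were above all CON libraries. The log2FC in PQQ-L vs. CON was 0.45 ± 0.18 (adjusted p = 0.233), and 0.14 ± 0.21 without the striatum-rich libraries. In PQQ-H vs. CON it was -0.03 ± 0.19 (adjusted p = 0.972, 95% interval -0.43 to 0.38), and its sign turned with median-of-ratios (0.04) and quantile (0.15) scaling. The PQQ-H value was lowest, of all alternatives run, without the striatum-rich libraries (-0.47). That value is against CON 2 alone, whose 1.36 FPKM is the highest of the CON group. Within the striatum-rich libraries, the mean of PQQ-H 1 and PQQ-H 2 was above that of CON 1 and CON 3 by 0.26 on the log2 scale. PQQ-H 2 (1.131 FPKM) itself was just below CON 3 (1.137 FPKM).

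All PQQ-H libraries were below all PQQ-L libraries in Tnfaip3, a pattern that 3.33% of all genes showed in PQQ-H vs. PQQ-L. The mean was 1.07 ± 0.172 FPKM in PQQ-H and 1.52 ± 0.151 in PQQ-L, with a log2FC of -0.48 ± 0.16 (adjusted p = 0.580), and of -0.61 ± 0.16 (adjusted p = 0.339) without the striatum-rich libraries. At an unadjusted p < 0.05, 4.6% of all genes were lower between the doses. The two-sided exact permutation test gave p = 0.0159, the smallest that 126 splits allow. Over the 9 genes and 3 comparisons, 27 such exact tests were run.

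The adhesion molecules were the genes with the lowest log2FC in PQQ-L. Icam1 (chr9:21015985-21028817, plus strand) encodes ICAM-1, the endothelial ligand of the leukocyte integrins LFA-1 and Mac-1. It was at 2.48, 1.20 and 2.39 FPKM in CON, at 0.884, 0.803, 1.39, 1.0 and 0.773 in PQQ-L and at 1.37, 2.65, 0.771 and 1.17 in PQQ-H. CON 2 was below PQQ-L 3, so the groups overlapped, and the highest value of all was in PQQ-H 2. In PQQ-L vs. CON the log2FC was -0.95 ± 0.35, a ratio of 0.517, with a 95% interval of -1.72 to -0.19 (adjusted p = 0.224). The exact permutation test gave p = 0.0714, where 56 splits allow no less than 0.0357. In PQQ-H vs. CON the log2FC was -0.48 ± 0.36 (adjusted p = 0.741).

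The value of Icam1 in PQQ-L vs. CON depended on the CON libraries. CON 2 is the only CON library that is not striatum-rich. Leaving it out sets CON 1 and CON 3, which are striatum-rich, against PQQ-L, where no library is. Treatment and tissue makeup cannot be told apart in that fit. Without CON 2 the log2FC was -1.27 with an adjusted p = 0.0367, the 1 case in which a gene of the list passed both thresholds, and 866 genes passed them then. Over all libraries 65 genes passed both thresholds. Rela (log2FC -0.49), Vcam1 (-0.75) and Tnfaip3 (0.61) also had an adjusted p < 0.05 without CON 2 (0.0326, 0.0432 and 0.0425), below the fold threshold. The share of all genes at this adjusted p alone was not counted in that fit. These genes therefore cannot be read as a result about the list. Without the striatum-rich libraries it was -0.31 ± 0.33 in PQQ-L (adjusted p = 0.978) and -0.31 ± 0.36 in PQQ-H. Icam1 was at 1.37 to 2.65 FPKM in the striatum-rich libraries and at 0.771 to 1.39 in the other 8. GENCODE M21 places Gm47079 on the opposite strand over 511 exonic bases of Icam1.

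The summed level of 10 endothelial markers (Slc2a1 and Cldn5 were highest) was 136 to 190 FPKM in CON, 125 to 153 in PQQ-L and 120 to 199 in PQQ-H. Its 3 highest sums (PQQ-H 2, CON 1 and CON 3) were in the 3 libraries with the highest Icam1. Of these 10 markers, all tested, 9 had a log2FC below 0 at the low dose and 10 at the high dose. The sum of 10 microglial markers (C1qb was among the highest) was 249 to 432 FPKM in CON, 257 to 313 in PQQ-L and 299 to 469 in PQQ-H, and was highest in the same 3 libraries. Of these, 9 of 10 had a log2FC below 0 in PQQ-L and 3 of 10 in PQQ-H. With the endothelial score (the mean log2 level of these markers) as a covariate, the log2FC of Icam1 was -0.36 ± 0.17 in PQQ-L vs. CON (adjusted p = 0.644) and 0.07 ± 0.17 in PQQ-H vs. CON (adjusted p = 0.951). With the microglial score, chosen after seeing the data, it was -0.53 ± 0.23 and -0.57 ± 0.22 (adjusted p = 0.549 and 0.242). The part of these cells in the difference was not tested further.

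**Figure D3:**
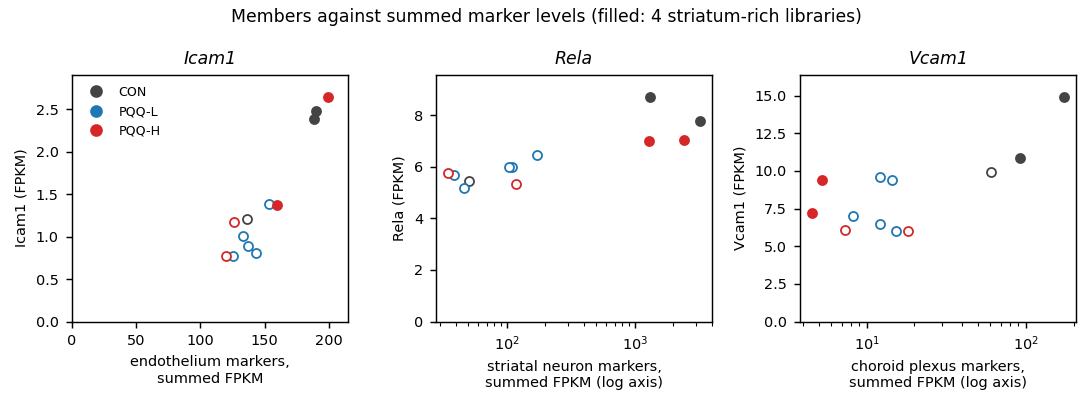
FPKM of Icam1 against the summed endothelial markers, of Rela against the striatal markers (log axis) and of Vcam1 against the choroid plexus markers (log axis), 1 point per library, with the 4 striatum-rich libraries filled. The 3 libraries with endothelial sums of 188 to 199 FPKM have the highest Icam1 (2.39 to 2.65 FPKM), and the 3 CON libraries have the highest choroid plexus sums and the highest Vcam1.

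Vcam1 (chr3:116109949-116129688, minus strand) encodes VCAM-1, the ligand of the integrin VLA-4. It was at 10.9, 9.95 and 14.9 FPKM in CON, at 5.99, 9.40, 9.58, 6.47 and 7.02 in PQQ-L and at 7.18, 9.37, 6.09 and 6.02 in PQQ-H. Every CON library was above every treated library, with PQQ-L 3 (9.58 FPKM) nearest to CON 2 (9.95 FPKM). Genes lower with no overlap made up 7.66% of all genes at the low dose and 5.72% at the high dose.

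The log2FC of Vcam1 was -0.63 ± 0.20 in PQQ-L (ratio 0.647, 95% interval -1.07 to -0.18, adjusted p = 0.203) and -0.73 ± 0.21 in PQQ-H (ratio 0.604, 95% interval -1.19 to -0.26, adjusted p = 0.196). The exact permutation p was 0.0357 at the low dose and 0.0571 at the high dose, the smallest that the 56 and 35 splits allow. Vcam1 thus passed the thresholds at neither dose, and it had the smallest adjusted p of the list in both. Between the doses the log2FC was -0.10 ± 0.19 (95% interval -0.51 to 0.31). Without the striatum-rich libraries it was -0.39 ± 0.25 in PQQ-L (adjusted p = 0.978) and -0.71 ± 0.28 in PQQ-H (adjusted p = 0.444). Within the striatum-rich libraries, PQQ-H 1 and PQQ-H 2 were below CON 1 and CON 3 by a mean of 0.63 on the log2 scale.

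The choroid plexus markers moved with Vcam1 between the groups, since their sum was also higher in all 3 CON libraries. All 12 of these markers were tested, and all 12 had a log2FC below 0 in both comparisons. Within the treated libraries the order differed, with Vcam1 at 9.37 FPKM in PQQ-H 2, where the choroid plexus sum was 5.24 FPKM, and at 6.02 FPKM in PQQ-H 4, where it was 18.3 although 5 of the 12 markers were listed at 0. With the choroid plexus score as a covariate the log2FC of Vcam1 was 0.48 ± 0.64 at the low dose and 0.71 ± 0.81 at the high dose. With the endothelial score it was -0.37 ± 0.17 at the low dose and -0.48 ± 0.18 at the high dose, and with the microglial score -0.44 ± 0.18 and -0.77 ± 0.17 (adjusted p = 0.515 and 0.0506). The choroid plexus score separates CON from both PQQ groups, so its part and that of the treatment cannot be told apart. The meningeal sum (8 markers, Igf2 and Dcn highest) was 25.0 to 59.0 FPKM in CON, 15.0 to 48.3 in PQQ-L and 10.7 to 14.7 in PQQ-H. Its part in the Vcam1 difference was not tested. GENCODE M21 has Gm43109 on the opposite strand over 61 exonic bases of Vcam1.

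**Figure D4:**
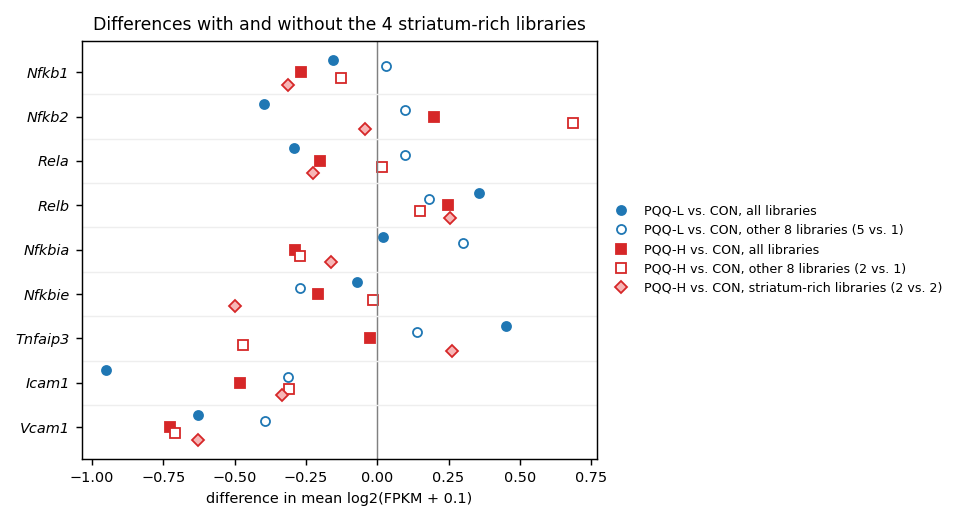
Differences in mean log2(FPKM + 0.1) of the 9 genes against CON over all 12 libraries (filled), over the 8 libraries that are not striatum-rich (open) and, for PQQ-H, within the 4 striatum-rich libraries (pale diamonds). Icam1, Vcam1 and Nfkbie stay below 0 and Relb above 0 in all of these sets. Rela, Nfkb1 and Nfkb2 change sign in PQQ-L between all 12 and the 8 libraries, as does Rela in PQQ-H. Within the 4 striatum-rich libraries, Nfkb2 (-0.04) and Tnfaip3 (0.26) in PQQ-H differ in sign from all 12. Among the 8 libraries, CON is CON 2 alone.

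Markers of leukocytes, the cells that carry the integrin partners, were low apart from Cd4. The sum of 8 lymphocyte markers was 0.660 to 28.1 FPKM in CON, 0.248 to 0.597 in PQQ-L and 0.201 to 21.0 in PQQ-H. Cd4 was at 8.54 to 27.6 FPKM in the 4 striatum-rich libraries and at most 0.287 in the others, while Cd3e, which marks T cells, was at most 0.116 FPKM and at 0 in 5 libraries. Only 1 of these 8 markers passed the filter. The sum of 6 neutrophil markers (S100a9 and S100a8 highest) was at most 5.69 FPKM, and that of 7 border macrophage markers (Pf4 and Cbr2 highest) at most 3.79 FPKM. Ly6g, which defines neutrophils, was at 0 in 9 libraries. The pericyte and smooth muscle sum (8 markers, Vtn and Rgs5 highest) was 80.6 to 113 FPKM in CON, 76.6 to 89.2 in PQQ-L and 70.3 to 96.6 in PQQ-H. Astrocyte markers (8 genes, Aldoc and Slc1a2 highest) summed to 824 to 830 FPKM in CON, 804 to 930 in PQQ-L and 748 to 990 in PQQ-H. Hemoglobin and other blood markers (5 genes) summed to 107 to 313, 55.1 to 251 and 122 to 600 FPKM, with the highest sum in PQQ-H 2, which also had the highest Icam1 and Nfkb2.

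Across the 12 libraries, the genes of the list were set against each other by Pearson's r of log2(FPKM + 0.1), given as a description since the libraries share groups and tissue makeup. Rela was most like Icam1 (r = 0.79), Nfkb1 and Vcam1 had r = 0.75, Rela and Vcam1 0.74, and Nfkb1 and Rela 0.71. Relb went the other way, with r = -0.69 to Icam1, -0.64 to Nfkb1 and -0.62 to Rela. Tnfaip3 had r = -0.63 to Nfkb2. Nfkbia had r = -0.55 to Nfkbie, although both encode IκB proteins.

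The genes most like each of them were also sought among the other tested genes, again over 12 libraries. Icam1 was closest to Rhoc (r = 0.99), Zfp57 and Suclg2, and Vcam1 to Slc16a9 (r = 0.98), Serpinh1 and Mavs. For the canonical subunits these were Rtp4 (r = 0.95), Rigi and Ccnd3 for Nfkb1, and Nnt (r = 0.97), Hadha and Ino80e for Rela. For the non-canonical subunits they were Gm38733 (r = 0.90), Ada and Tnfaip8l2 for Nfkb2, and Sema6b (r = 0.90), Ptprn and Zmym6 for Relb. For the inhibitors they were Irf2bp2 (r = 0.96), Serinc5 and Pear1 for Nfkbia, Gsto1 (r = 0.91), Mtch2 and Mpc2 for Nfkbie, and Cdh10 (r = 0.89), Chd1 and Dcun1d3 for Tnfaip3.

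A wider list of 58 other pathway genes was described by role, of which 39 were tested. Of these 39, 0 passed both thresholds in either comparison with CON or between the doses, and 0 had an adjusted p < 0.05 by limma. At an unadjusted p < 0.05, PQQ-L vs. CON had 5 of them lower and 2 higher, beside 11.6% and 8.92% of all genes. PQQ-H vs. CON had 4 lower and 0 higher, beside 7.88% and 1.85% of all genes, so these counts are near the shares over all genes. Between the doses 1 was lower (Csf1) and 1 higher (Tab1), beside 4.6% and 3.55% of all genes. Their median log2FC was -0.06 at the low dose and -0.05 at the high dose, beside -0.03 for all genes. Without the striatum-rich libraries, 2 of the 39 (Ltbr and Tnfrsf1a) were lower and 0 higher in PQQ-L at an unadjusted p < 0.05, beside 3.06% and 1.51% of all genes. In PQQ-H 4 (Ier3, Itgb1, Ltbr and Tnfrsf1a) were lower and 0 higher, beside 8.15% and 2.31%. The values of single genes that follow are over all libraries unless stated.

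The receptors Tlr2, Ltbr and Tnfrsf1a had the lowest log2FC of the 39 genes in both comparisons with CON. Of 7 receptor genes 5 were tested, and 4 of these had a log2FC below 0 in PQQ-L and 3 in PQQ-H, where the share over all genes was 53.9% and 55.6%. Il1r1, the interleukin 1 receptor, went the other way with 0.79 ± 0.53 and 0.50 ± 0.55 (adjusted p = 0.338 and 0.820), and Tnfrsf1b, which encodes TNF receptor 2, had -0.06 and 0.04. Both are named after their values were seen. Ltbr, the lymphotoxin β receptor that starts the non-canonical arm, was at 3.79 to 6.45 FPKM in CON, 2.0 to 3.19 in PQQ-L and 2.44 to 3.92 in PQQ-H. Its log2FC was -0.94 ± 0.21 in PQQ-L (adjusted p = 0.0810) and -0.79 ± 0.22 in PQQ-H (adjusted p = 0.166), and -0.53 ± 0.23 and -0.60 ± 0.25 without the striatum-rich libraries. Tlr2, a receptor of bacterial lipopeptides, had a log2FC of -0.98 ± 0.40 and -0.73 ± 0.41 (adjusted p = 0.235 and 0.629). Without the striatum-rich libraries, the low and high dose gave -0.65 and -0.82 for Tlr2, -0.05 and 0.30 for Il1r1 and 0.41 and 0.31 for Tnfrsf1b.

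Tnfrsf1a, which encodes TNF receptor 1, is named because it had the smallest adjusted p of the 39 genes, a choice made after its values were seen. It was at 6.20 to 8.90 FPKM in CON, 4.09 to 4.73 in PQQ-L and 4.07 to 6.55 in PQQ-H. PQQ-L lay below CON without overlap, as it did for 7.66% of all genes and for 5 of the 39 genes, and PQQ-H overlapped with CON. The log2FC was -0.74 ± 0.15 in PQQ-L (adjusted p = 0.0573) and -0.60 ± 0.16 in PQQ-H (adjusted p = 0.134), and without the striatum-rich libraries -0.45 ± 0.14 and -0.45 ± 0.15 (adjusted p = 0.922 and 0.397).

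The kinases showed small values. Of 7 kinase genes 6 were tested, with 0 at an unadjusted p < 0.05. Map3k14, which encodes NIK, had a log2FC of -0.46 ± 0.27 at the low dose and -0.38 ± 0.29 at the high dose (adjusted p = 0.293 and 0.741). Tbk1, an IKK-related kinase, had a log2FC of 0.15 ± 0.15 and 0.07 ± 0.16. Of 10 adaptor genes 8 were tested, with Tab1 lower at an unadjusted p < 0.05 in PQQ-L (log2FC -0.24) and Irak1 in PQQ-H (log2FC -0.19). Traf3, which keeps NIK low, had a log2FC of 0.57 ± 0.28 at the low dose and 0.03 ± 0.29 at the high dose, and Traf2 had -0.18 ± 0.11 and -0.19 ± 0.12. Without the striatum-rich libraries, the low and high dose gave -0.05 and -0.37 for Map3k14 and -0.12 and 0.04 for Tbk1. They gave 0.05 and -0.11 for Traf3 and 0.0009 and 0.004 for Traf2. Tab1 was then at -0.14 in PQQ-L and Irak1 at -0.22 in PQQ-H.

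The remaining subunit Rel (c-Rel) was at 0.577 to 0.687 FPKM in PQQ-L, above all CON libraries (0.419 to 0.568 FPKM), as 2.96% of all genes were. Its log2FC was 0.27 ± 0.18 (adjusted p = 0.341), and in PQQ-H it was 0.05 ± 0.19. Of 8 further inhibitors 7 were tested. Nfkbiz and Nfkbid, which encode atypical nuclear IκB proteins, had a log2FC of 0.56 ± 0.25 and 0.46 ± 0.35 in PQQ-L (adjusted p = 0.240 and 0.390), and of 0.41 ± 0.26 and 0.45 ± 0.36 in PQQ-H. For Nfkbiz the low and high dose gave 0.013 and 0.088 without the striatum-rich libraries. For Nfkbid they then gave 0.969 and 0.999, and for Rel 0.208 and -0.050, so the sign of Rel turned in PQQ-H.

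The cytokines that switch the pathway on were near the limit of detection. Tnf had 0 to 8 reads in a library, Il6 0 to 6, Il1b 2 to 18 and Il1a 11 to 42, and 0 of these 4 ligands passed the filter. Of 12 further targets 6 were tested. The chemokine genes Ccl2, Ccl5, Cxcl1 and Cxcl10 were not, with at most 25 reads in a library. Ptgs2, which encodes cyclooxygenase 2 and is also an activity-dependent gene of neurons, had a log2FC of 1.88 ± 0.74 at the low dose and 1.43 ± 0.77 at the high dose (adjusted p = 0.233 and 0.603), with 0.218 to 3.25 FPKM in CON and 2.49 to 5.95 in PQQ-L. The log2FC of Ptgs2 was 0.34 ± 0.44 and 0.87 ± 0.50 without the striatum-rich libraries. Ier3 had a log2FC of -0.48 ± 0.39 and -0.59 ± 0.41, and 0.0008 and -0.81 without the striatum-rich libraries.

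Among the adhesion partners, 6 of 9 genes were tested, and the endothelial selectins Sele and Selp were not, with at most 15 and 7 reads in a library. Itga4, the α chain of VLA-4, had a log2FC of 1.40 ± 0.70 at the low dose and 0.56 ± 0.73 at the high dose (adjusted p = 0.255 and 0.844), and -0.29 ± 0.32 and -0.18 ± 0.36 without the striatum-rich libraries, so the sign turned in both. Its β chain Itgb1, the 1 adhesion partner at an unadjusted p < 0.05 in both comparisons and therefore named after its values were seen, had a log2FC of -0.38 ± 0.11 and -0.41 ± 0.12 (adjusted p = 0.187 and 0.188). Icam2, another endothelial adhesion molecule, had a log2FC of -0.39 ± 0.29 and -0.44 ± 0.30. Without the striatum-rich libraries, the low and high dose gave 0.003 and -0.53 for Icam2 and -0.20 and -0.39 for Itgb1. Of the chains of LFA-1 and Mac-1, Itgal was not tested, and Itgam and Itgb2 are named after their values were seen. Over all libraries the low and high dose gave 0.05 ± 0.15 and 0.19 ± 0.16 for Itgam. For Itgb2 they gave -0.27 ± 0.23 and 0.03 ± 0.24.

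**Figure D5:**
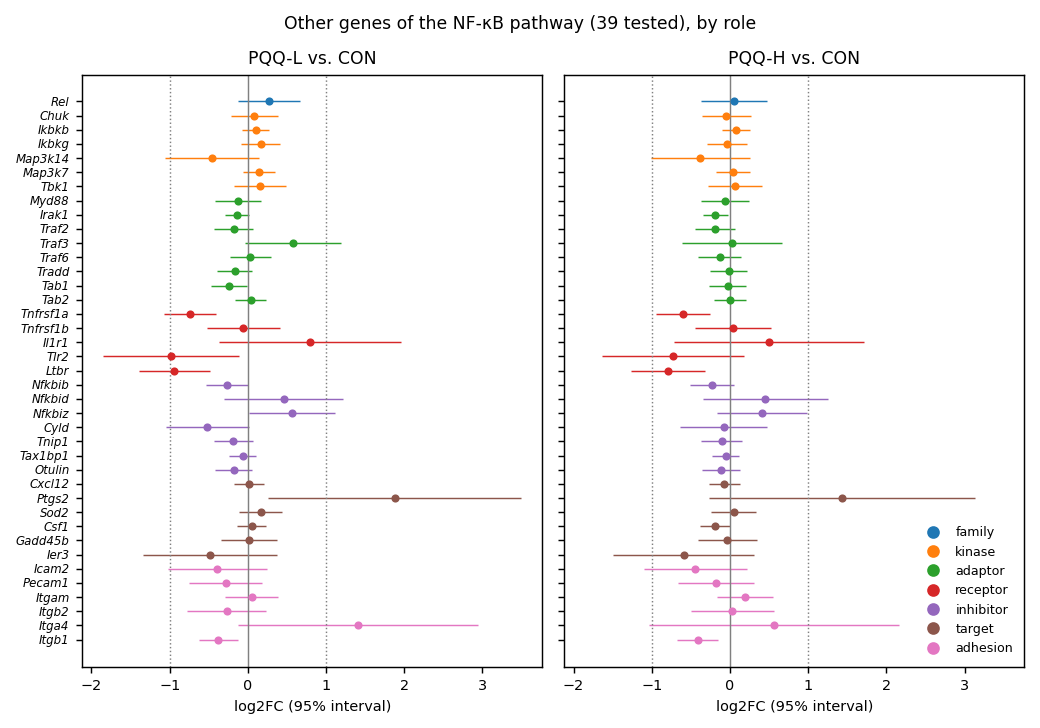
log2FC with 95% intervals of the 39 other pathway genes tested, at each dose against CON, colored by role. The receptors Tnfrsf1a, Tlr2 and Ltbr lie lowest, and 0 of the 39 genes passed both thresholds.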

How the data were processed

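Hippocampal libraries (3 CON, 5 PQQ-L and 4 PQQ-H) were grouped by the treatment in the labels. The authors used TRIzol for extraction, an Illumina NovaSeq 6000 for sequencing, fastp for read filtering, HISAT2 for mapping and HTSeq-count for counting, and deposited FPKM in 1 table. The build mm39 is in the submitters' processing notes. Versions, annotation and strandedness are not given in the sources used here. Whole reads behind the FPKM were recovered (100% of 25563 genes above 0 in at least 2 libraries, tolerance 0.02 reads) to give depth. All libraries entered 1 limma 3.58.1 fit with trend (R 4.3.3) on log2(FPKM + 0.1), which understates changes of low genes, restricted to a mean FPKM of 0.5 or more. The smallest p-values of the exact permutation tests (scipy 1.17.1) follow from the number of splits. The scripts were tested on simulated data. The 9 genes and all lists were chosen with earlier results of these data known. All 9 genes are named, and of the wider list those with an adjusted p < 0.05 and the 2 per role with the largest mean |log2FC| against CON. For likeness, the 3 genes of highest r are named, and for markers the 2 highest genes. Positions are from GENCODE M21 (GRCm38), a build other than that of the files. In all, 32 alternatives were run, 3 of them chosen after seeing the data.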

Additional observations from a re-analysis of the deposited data

How the results depend on the processing

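The count of genes of the list that passed both thresholds was 0 under 31 of 32 alternatives in PQQ-L vs. CON, and under all 32 at the high dose against CON and between the doses. The exception was Icam1 without CON 2, where the CON libraries left are both striatum-rich. Leaving out single libraries gave counts of 0 to 1. The genes lower at an unadjusted p < 0.05 numbered 2 in PQQ-L, and 1 with array quality weights (whose iteration stopped early), with only the libraries named with L (2 CON libraries) or with the replicate block. They numbered 0 with the choroid plexus, endothelial or striatal score (the last chosen after seeing the data) and without the 4 striatum-rich libraries, and 0 to 5 with single libraries left out (5 without CON 2, 0 without CON 3, 1 without CON 1). In PQQ-H they numbered 2, and 1 with median-of-ratios or quantile scaling, only the 2 groups compared, the libraries named with L, the replicate block or the endothelial score, 0 with the choroid plexus score, 3 with the microglial score (chosen after seeing the data), and 1 to 4 with single libraries left out (4 without CON 2, 1 without CON 3). Over all libraries, 11.6% and 7.88% of all genes were lower at this p in PQQ-L and PQQ-H. For most alternatives this share was not counted, so the counts cannot be read as a result about the list. The number of all genes passing both thresholds in PQQ-L moved as well. It was 65 over all libraries, 866 without CON 2, 37 without CON 3 and 23 without CON 1. The cause was not tested.

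No clear pairing by replicate number was seen. Of 10 same-numbered pairs, 4 had a correlation of deviations above 0.1 (range -0.62 to 0.72), and 4 of 12 libraries correlated best with their own number. In the highest pair, CON 1 and PQQ-H 1, both libraries are striatum-rich, and in the lowest, CON 2 and PQQ-H 2, only PQQ-H 2 is. Tissue makeup enters these correlations, so they cannot decide whether libraries were paired. With the replicate number as a block, 23 genes were called in PQQ-L and 48 in PQQ-H, against 65 and 113.

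The sign of some log2FC turned, none of them called. With the choroid plexus score, PQQ-L gave 0.19 for Nfkb1, 0.54 for Rela, 0.64 for Icam1 and 0.48 for Vcam1, and PQQ-H gave 0.18 for Nfkb1, 0.89 for Rela, -0.049 for Relb, 0.43 for Nfkbia, 1.59 for Icam1 and 0.71 for Vcam1. With the endothelial score PQQ-H gave 0.0016 for Rela and 0.075 for Icam1. With the libraries named with L, PQQ-L gave 0.033 for Nfkb2 and 0.24 for Nfkbie. Without the striatum-rich libraries PQQ-L gave 0.029 for Nfkb1, 0.096 for Nfkb2 and 0.096 for Rela, and PQQ-H gave 0.018 for Rela. TPM gave 0.028 and quantile scaling 0.097 for Nfkbie in PQQ-L, and Tnfaip3 in PQQ-H gave 0.036 with median-of-ratios, 0.15 with quantile scaling and 0.050 with array quality weights. TPM moved the median log2FC of all genes in PQQ-H vs. PQQ-L to -0.11.

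Leaving out single libraries also turned signs. In PQQ-L the log2FC then ranged from -0.12 to 0.12 for Nfkbia and from -0.23 to 0.088 for Nfkbie, and in PQQ-H from -0.048 to 0.36 for Nfkb2, from -0.22 to 0.13 for Tnfaip3 and from -0.37 to 0.00076 for Nfkbie. A mean FPKM of at least 1 left 6 of the 9 genes in the test.

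Depth limits mainly Nfkbie and Icam1, with as few as 38 and 68 reads. With 3 CON libraries, of which 2 are striatum-rich, treatment and tissue makeup cannot be told apart.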
